A study of Homo sapiens with 4 samples.

Results

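Messenger RNAs of the translation initiation factors (eIFs) were lower on balance in UM1 cells grown in high glucose than in cells grown in normal glucose. The 4E-BPs, proteins that hold the cap-binding factor in check, were counted with them. Of these, EIF4EBP1 was lower and EIF4EBP2 did not pass. Of 46 genes measured, 27 were lower, 3 were higher and 16 did not pass the test. Over all genes 22.2% were lower and 15.5% higher, and over genes at a mean log2 level of 8 or more 41.5% and 23.9%. The largest falls were those of EIF1B, EIF4EBP1, EIF5A2, EIF1, EIF5, EIF4E3, EIF2A and EIF2S2, each of 2-fold or more. EIF4E2, EIF4A3 and EIF4G2 were the 3 higher genes. The 46 genes were all autosomal or X-linked genes whose symbol begins with EIF and a factor number from 1 to 6, without the eIF2 alpha kinases, out of 18132 genes on the arrays. Each was read by its brightest probe set among those annotated to it alone. The rule itself reads only the symbols.

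UM1 is an established line from a human squamous cell carcinoma of the tongue. The cells were kept for 7 days at 5.6 mM glucose, called normal glucose in the study and low glucose in the sample labels, or at 16.7 mM, called high glucose. Both groups were grown in DMEM with foetal bovine serum. Each level had 2 arrays, which the labels call biological replicates and the methods duplicates. No source says whether they came from separate cultures, so the p-values measure the spread between these arrays, which may be technical. All results concern this 1 line.

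Translation of most messenger RNAs begins when the small ribosomal subunit, carrying the initiator tRNA, is brought to the capped end of the message and scans to the start codon. eIF2 delivers the initiator tRNA with GTP, and eIF2B recharges eIF2. eIF3 is the large scaffold on the small subunit, and eIF1, eIF1A and eIF5 control how strictly the start codon is read. The eIF4F complex joins the cap-binding protein eIF4E, the scaffold eIF4G and the helicase eIF4A. The 4E-BPs compete with eIF4G for eIF4E until the kinase complex mTORC1, which responds to nutrients, phosphorylates them.

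The values are log2 levels from RMA, which sets all arrays to a common distribution. A lower value therefore means a smaller share of the measured messages. In such bulk RNA, fewer cells that express a gene and less of its RNA per cell cannot be told apart. Array medians ran from 5.01 to 5.07, and over the probe sets, which are no replicates of each other, arrays correlated at 0.997 and 0.996 within the groups and at 0.946 between them. Of the 13 squamous epithelial markers, 9 were measured, and all 9 lay above the 25th percentile of at least 1 array. Of these, 8 were higher in high glucose and EPCAM was lower. The summed level of the 9 was 13.1 on the log2 scale on both normal glucose arrays and 15.6 to 15.7 in high glucose. The 8 fibroblast markers summed to 6.71 to 6.92 in normal glucose and 10.2 in high glucose, where 3 were higher, while PDGFRA, LUM and THY1 were below the 25th percentile on all arrays. The 4 measured leukocyte and 4 endothelial markers held no called gene. The beta-actin control had a 3′ signal above its 5′ signal by 0.713 and 0.740 log2 units on the normal glucose arrays, and by 0.349 and 0.417 on the high glucose arrays. For the GAPDH control the same difference was 0.240 and 0.135 in normal glucose and 0.0802 and 0.123 in high glucose. The part of these shifts in the results on the initiation factors was not tested.

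Among all 18132 genes, 22.2% were lower and 15.5% higher in high glucose, taking limma's Benjamini-Hochberg adjusted p below 0.05 as the call. Of the 46 initiation factor genes, 58.7% were lower and 6.52% higher. Their median log2 difference was -0.37, beside -0.033 for all genes. Of the 46, 8 were called lower with a fall of 2-fold or more, as were 5.48% of all genes. The share of such falls among genes of similar level was not counted. Most initiation factor genes gave bright signals, and calls were commoner among bright genes. At a mean level of 8 or more, 41.5% of genes were lower and 23.9% higher, whereas 25 of the 37 initiation factors at that level were lower and 3 were higher. The median log2 difference at that level was -0.50 for the initiation factors and -0.18 for all genes. This limit of 8 was chosen after the values were seen.

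**Figure D1:**
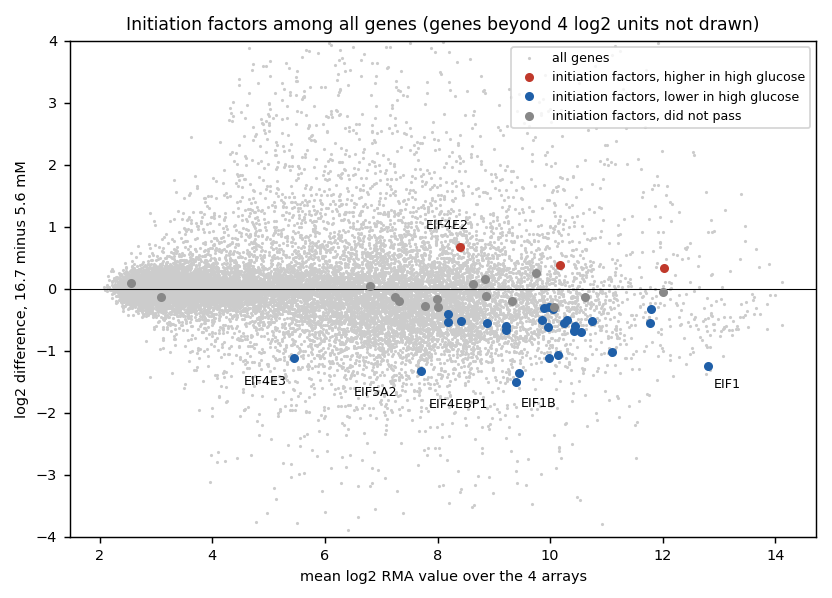
Log2 difference of each gene between 16.7 mM and 5.6 mM glucose (y axis) against its mean log2 level over the 4 arrays (x axis), with other genes within 4 log2 units of 0 in grey (100 genes beyond that are not drawn) and the 46 initiation factor genes in colour by their call. Most coloured points lie right of a level of 8 and below 0, and EIF1 is the brightest of the genes that fell by 2-fold or more.

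**Figure D2:**
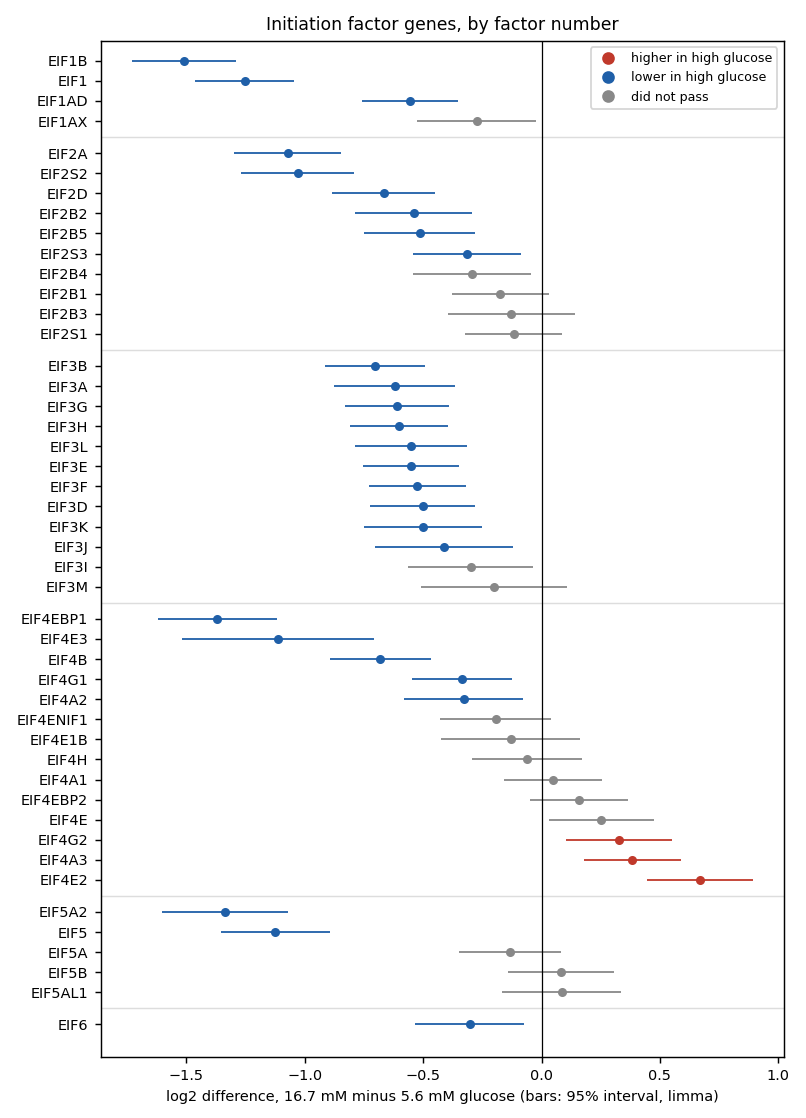
Log2 difference between 16.7 mM and 5.6 mM glucose for the 46 genes, grouped by factor number from eIF1 at the top to eIF6 at the bottom. Points are limma estimates from 2 arrays per group and bars their 95% intervals. Every eIF1, eIF2 and eIF3 gene lies left of 0, and the eIF4 genes lie on both sides.

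Stretches of 250 bases upstream of the start are shown for the start-codon factors EIF1, EIF1B and EIF5, which fell together, and for the cap-binding paralogs EIF4E2 and EIF4E3, which went opposite ways. They are RefSeq sequences of the build GRCh38.p14, read 5′ to 3′ on the strand of the gene: chr17:41688635-41688884 for EIF1, chr3:40309457-40309706 for EIF1B, chr14:103333987-103334236 for EIF5 and chr2:232550439-232550688 for EIF4E2, all on the plus strand, and chr3:71729119-71729368 for EIF4E3 on the minus strand. For EIF4E3 the start shown is the one whose window alone held the C/EBP-ATF response element. Capitals mark matches, on either strand, to the C/EBP-ATF response element (TGATGNAAN), the core of an ATF and CREB site (TGACG), the E-box bound by MYC and related factors (CACGTG) and a site of ETS factors (CCGGAAG).
EIF1: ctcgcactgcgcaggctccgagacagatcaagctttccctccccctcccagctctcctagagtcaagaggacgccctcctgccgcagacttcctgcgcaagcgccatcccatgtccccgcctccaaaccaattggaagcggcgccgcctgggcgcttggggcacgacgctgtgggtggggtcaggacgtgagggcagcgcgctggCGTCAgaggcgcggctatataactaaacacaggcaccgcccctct
EIF1B: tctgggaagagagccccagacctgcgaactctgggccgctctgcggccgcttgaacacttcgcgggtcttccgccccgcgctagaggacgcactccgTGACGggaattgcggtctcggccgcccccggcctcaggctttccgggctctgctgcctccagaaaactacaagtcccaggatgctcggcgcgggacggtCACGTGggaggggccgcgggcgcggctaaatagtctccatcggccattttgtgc
EIF5: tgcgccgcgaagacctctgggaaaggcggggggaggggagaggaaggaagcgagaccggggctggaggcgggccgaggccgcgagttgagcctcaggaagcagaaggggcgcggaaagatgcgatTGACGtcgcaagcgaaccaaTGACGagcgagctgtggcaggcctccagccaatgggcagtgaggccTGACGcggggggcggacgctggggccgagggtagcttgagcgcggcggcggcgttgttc
EIF4E2: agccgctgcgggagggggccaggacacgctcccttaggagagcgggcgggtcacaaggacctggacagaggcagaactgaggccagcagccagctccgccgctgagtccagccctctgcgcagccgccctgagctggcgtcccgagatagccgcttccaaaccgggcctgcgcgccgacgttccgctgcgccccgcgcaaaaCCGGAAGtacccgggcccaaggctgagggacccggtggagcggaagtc
EIF4E3: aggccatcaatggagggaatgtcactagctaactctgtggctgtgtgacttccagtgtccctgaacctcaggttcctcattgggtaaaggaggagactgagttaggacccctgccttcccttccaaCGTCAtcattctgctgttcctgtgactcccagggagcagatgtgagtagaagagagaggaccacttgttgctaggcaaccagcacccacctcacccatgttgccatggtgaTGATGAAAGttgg

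The RefSeq promoter table held windows for 39 of the 46 genes, 53 windows in all. Matches in these windows are descriptions of the letters and not evidence of binding. The C/EBP-ATF response element was found in 1 of the 53 windows, that of EIF4E3, and in 3.13% of all 35116 windows of this length. Its stricter form TGATGCAAT was in 0 of the 53 and in 0.216% of all. The E-box stood in 10 of the 53, or 18.9%, beside 6.34% of all windows. Of its 10 genes 6 were lower, EIF1B, EIF4B and EIF5A2 among them, beside 20 of the 39 genes with a window. EIF4A3 was higher, and EIF2B3, EIF4E and EIF4H did not pass. The ATF and CREB core stood in 41.5% of the 53 and in 21.2% of all windows. It was in the printed windows of EIF1 and EIF1B once each and in that of EIF5 at 3 places. The ETS site stood in 17% of the 53 and 8.52% of all, EIF4E2 included. The CCAAT box (CCAAT) stood in 37.7% of the 53 and in 32% of all. The E-box, the ATF and CREB core, the ETS site and the CCAAT box were chosen after the values were seen.

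EIF1, EIF1B and EIF5, which act in start codon choice, were each lower by 2-fold or more, whereas EIF1AX did not pass. EIF1, which keeps the scanning ribosome open until a start codon is met, had levels of 13.40 and 13.46 on the 2 normal glucose arrays and 12.17 and 12.18 on the 2 high glucose arrays. Both high glucose arrays lay far below both normal glucose arrays. EIF1 was lower by a factor of 2.38 (log2 difference -1.25, SE 0.0843, n = 2 arrays per group, limma adjusted p = 0.000155). Its close paralog EIF1B was at 10.12 and 10.16 in normal glucose and 8.58 and 8.68 in high glucose. The fall was by a factor of 2.85 (log2 difference -1.51, SE 0.0884, limma adjusted p = 9.3e-05), the largest of the 46. All 4 probe sets of EIF1 and both of EIF1B were lower, by factors of 2.27 to 2.67 and of 2.61 and 2.85. The brightest EIF1 probe set is of a type that may also bind other transcripts, and the EIF1 probe set specific to the gene was lower by a factor of 2.67. EIF5, which makes eIF2 hydrolyse its GTP at the start codon, had levels of 10.57 and 10.51 in normal glucose and 9.35 and 9.48 in high glucose. It was lower by a factor of 2.18 (log2 SE 0.0926, limma adjusted p = 0.000334), and its 7 probe sets by factors of 1.92 to 2.49. Thus each probe set annotated to 1 of these 3 genes alone was lower in high glucose. A dim probe set shared by EIF5 and SNORA28 had a log2 difference of 0.08 and did not pass (limma adjusted p = 0.726).

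EIF1AD, a gene with an eIF1A-like domain, was lower by a factor of 1.47 (limma adjusted p = 0.0032). EIF1AX, the X-linked eIF1A, had a log2 difference of -0.27 with an interval from -0.52 to -0.02 (adjusted p = 0.0865). EIF5B, the GTPase that joins the large subunit at the end of initiation, had a log2 difference of 0.08 with an interval from -0.14 to 0.31 (adjusted p = 0.555).

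Among the 10 genes of eIF2, eIF2B and the alternative carriers of initiator tRNA, 6 were lower, 0 were higher and 4 did not pass. Beside them, 22.2% of all genes were lower and 15.5% higher, and 41.5% and 23.9% of genes at a level of 8 or more. EIF2A, which can bring initiator tRNA to the ribosome without eIF2, had levels of 10.61 and 10.73 in normal glucose and 9.62 and 9.57 in high glucose. EIF2A was lower by a factor of 2.10 (log2 difference -1.07, SE 0.0913, limma adjusted p = 0.00038), while its other, dim probe set, at a log2 difference of -0.30, did not pass. EIF2S2, the beta subunit of eIF2, was at 11.56 and 11.66 in normal glucose and 10.65 and 10.51 in high glucose. EIF2S2 was lower by a factor of 2.04 (log2 difference -1.03, SE 0.0963, limma adjusted p = 0.000547). EIF2S3, the gamma subunit that binds GTP, was lower by a factor of 1.24 (adjusted p = 0.0416). Of its 4 probe sets, 2 were called lower, and log2 differences ran from -0.34 to -0.004. With the median of its probe sets EIF2S3 did not pass (log2 difference -0.15, limma adjusted p = 0.311). EIF2S1, the alpha subunit that stress kinases phosphorylate, had a log2 difference of -0.12 with an interval from -0.32 to 0.09 (adjusted p = 0.333), and its 5 probe sets lay between -0.21 and -0.10. EIF2D, which acts in recycling and reinitiation, was lower by a factor of 1.59 (adjusted p = 0.00206).

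Of the 5 subunits of eIF2B, the exchange factor that recharges eIF2, the beta subunit EIF2B2 and the catalytic epsilon subunit EIF2B5 fell by factors of 1.45 and 1.43 (adjusted p = 0.00762 and 0.00749 from limma). EIF2B1, EIF2B3 and EIF2B4 had log2 differences of -0.17, -0.13 and -0.29 and did not pass.

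Most eIF3 genes were lower, by less than 2-fold. Of the 12 subunits measured, 10 were lower, 0 were higher and 2 did not pass. The 12 had a median log2 difference of -0.54 and a range from -0.70 to -0.20. Beside this count, 22.2% of all genes were lower and 15.5% higher, and 41.5% and 23.9% of genes at a level of 8 or more. EIF3B, a core subunit that holds several others together, had levels of 10.89 and 10.93 in normal glucose and 10.24 and 10.17 in high glucose. This was a fall by a factor of 1.63 (log2 SE 0.0851, limma adjusted p = 0.00146), and 7 of its 8 probe sets were called lower. EIF3A, the largest subunit, was lower by a factor of 1.54 and EIF3G by 1.53. EIF3H, EIF3L, EIF3E and EIF3F, of the octameric core, were lower by factors of 1.52, 1.47, 1.46 and 1.44. The fall of EIF3F rested on its 2 bright probe sets, and its 3 dim ones, from -0.29 to 0.34, did not pass. EIF3F lost its call with the mean or median of its probe sets (log2 difference 0.03 with the median), as EIF3G did. EIF3D, which can bind caps itself, and EIF3K fell by factors of 1.42 and 1.41, and the loosely bound EIF3J by 1.33. EIF3I and EIF3M had log2 differences of -0.30 and -0.20 with intervals from -0.56 to -0.03 and from -0.51 to 0.11 (adjusted p = 0.0791 and 0.278). EIF3C has a near-identical copy, EIF3CL, and no probe set of its own, so it is not among the 12. The 5 probe sets shared by the pair had log2 differences from -0.44 to -0.23.

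**Figure D3:**
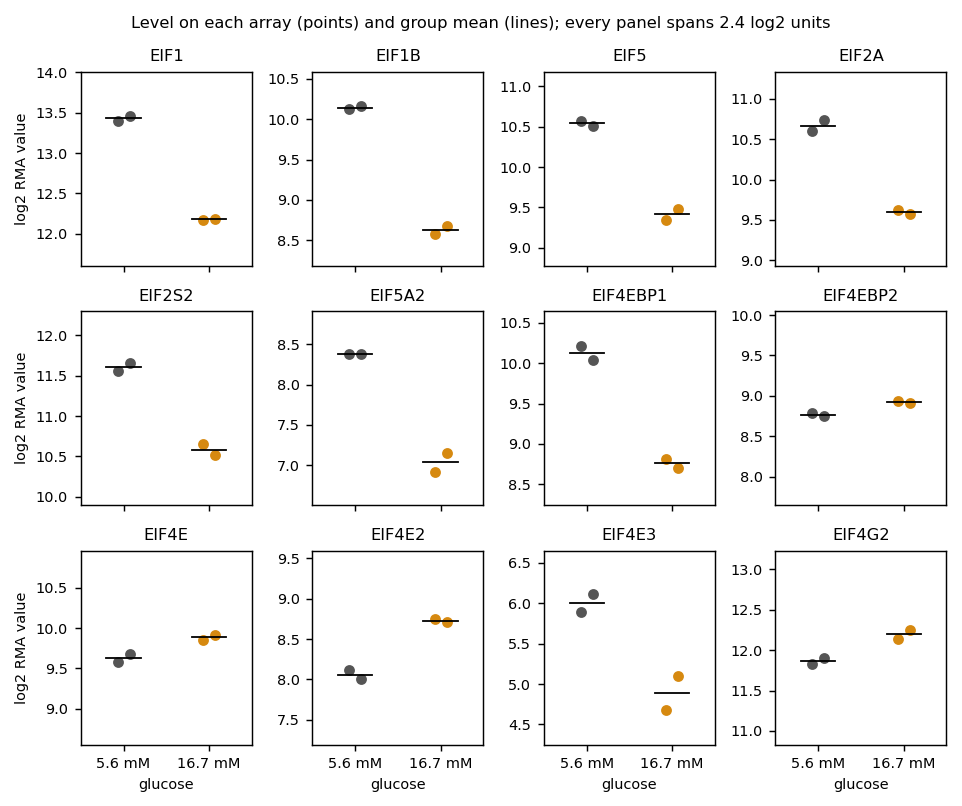
Log2 RMA level of 12 initiation factor genes on each array (points) and the mean of each group (lines) at 5.6 mM and 16.7 mM glucose, in panels that all span the same range of log2 units. In each panel the 2 points of a group lie on the same side of both points of the other group, with EIF1, EIF1B, EIF5, EIF2A, EIF2S2, EIF5A2, EIF4EBP1 and EIF4E3 lower and EIF4EBP2, EIF4E, EIF4E2 and EIF4G2 higher at 16.7 mM. EIF4EBP2 and EIF4E did not pass the test.

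Of the 14 eIF4 genes, 5 were lower, 3 were higher and 6 did not pass, beside 22.2% lower and 15.5% higher among all genes and 41.5% and 23.9% among genes at a level of 8 or more. The count of the eIF4 genes is near the shares at that level. EIF4EBP1, which encodes 4E-BP1, had levels of 10.21 and 10.04 in normal glucose and 8.81 and 8.70 in high glucose. EIF4EBP1 was lower by a factor of 2.58 (log2 difference -1.37, SE 0.101, n = 2 arrays per group, limma adjusted p = 0.000222), and its 3 probe sets had log2 differences of -1.48, -1.37 and -1.26. EIF4EBP2, which encodes 4E-BP2, was at 8.78 and 8.75 in normal glucose and 8.94 and 8.91 in high glucose. Its groups were apart, but the log2 difference of 0.16 had an interval from -0.05 to 0.36 (adjusted p = 0.203). Of its 5 probe sets, 2 dimmer ones were called higher, at log2 differences of 0.44 and 0.65, and the others lay between -0.03 and 0.28. The 4E-BP3 gene, EIF4EBP3, shares its probe set with a read-through transcript from ANKHD1 and is not among the 46. That shared probe set was at 5.62 and 5.86 in normal glucose and 5.23 and 4.86 in high glucose, a log2 difference of -0.70 (adjusted p = 0.0158 over all probe sets of 1 or several genes, limma). EIF4ENIF1, which encodes the eIF4E transporter 4E-T, had a log2 difference of -0.19 (adjusted p = 0.176).

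The cap-binding proteins themselves went different ways. EIF4E, the main cap-binding protein and the target of the 4E-BPs, had levels of 9.58 and 9.68 in normal glucose and 9.85 and 9.92 in high glucose. Its log2 difference of 0.25 had an interval from 0.03 to 0.48 and did not pass (SE 0.0897, limma adjusted p = 0.0771), and 0 of its 7 probe sets were called. EIF4E2, or 4EHP, a cap-binding paralog that does not bind eIF4G and represses translation, was at 8.12 and 8.001 in normal glucose and 8.75 and 8.71 in high glucose. It was higher by 1.59-fold (log2 difference 0.67, SE 0.0899, limma adjusted p = 0.00218), the only 1 of the 46 that passed the fold threshold of the methods upward. EIF4E3, an atypical paralog, was at 5.89 and 6.12 in normal glucose and 4.68 and 5.10 in high glucose. It was lower by a factor of 2.16 (log2 SE 0.163, limma adjusted p = 0.00308), with all 5 of its probe sets called lower. Its levels in high glucose were near the array medians. EIF4E1B, an oocyte form, was at 3.24 and 3.08 in normal glucose and 3.15 and 2.91 in high glucose, below the 25th percentile on all arrays.

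EIF4G2, or DAP5, a relative of eIF4G that lacks the eIF4E-binding part, was at 11.83 and 11.90 in normal glucose and 12.14 and 12.25 in high glucose, 1.26-fold higher (log2 SE 0.0904, limma adjusted p = 0.0343). EIF4G1, the main scaffold, was lower by a factor of 1.26 (adjusted p = 0.0251). Both calls are weak: each was lost with any 1 array left out, and that of EIF4G2 also with array medians centred (adjusted p = 0.0537) and with a further quantile normalization (adjusted p = 0.0925). EIF4A3, the helicase of the exon junction complex, was 1.30-fold higher (adjusted p = 0.0138). EIF4A2 was lower by a factor of 1.26 (adjusted p = 0.0495), but its 4 probe sets ran from a log2 difference of -0.73 to one of 0.27. With the median of its probe sets the log2 difference of EIF4A2 was 0.16. EIF4A1, the main helicase of eIF4F, had a log2 difference of 0.05 on its own brightest probe set, at a mean of 6.78 in normal glucose. The 3 probe sets it shares with a SENP3 read-through transcript gave log2 differences of 0.20 to 0.24, with levels from 10.71 to 11.92 (adjusted p of 0.0977 to 0.145). EIF4B, which stimulates the helicase, was lower by a factor of 1.60 (log2 SE 0.0860, limma adjusted p = 0.00173), with 5 probe sets between -0.76 and -0.66. EIF4H, its relative, had a log2 difference of -0.06 (adjusted p = 0.681), but without probe sets that can bind other transcripts it was represented by another one at 0.36 (adjusted p = 0.0363).

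Of the eIF5A pair, which help the ribosome over difficult peptide bonds and carry the modified residue hypusine, only EIF5A2 passed. EIF5A2 had the same level of 8.37 on both normal glucose arrays and 6.92 and 7.16 in high glucose. It was lower by a factor of 2.52 (log2 difference -1.34, SE 0.108, limma adjusted p = 0.00031), with 4 probe sets between -1.41 and -1.27. EIF5A, the widely expressed form, had a log2 difference of -0.13 with an interval from -0.35 to 0.08 (adjusted p = 0.305), at levels of 10.72 and 10.65 against 10.59 and 10.52. The intervals of EIF5A2 and EIF5A do not overlap, though the difference between them was not tested. EIF5AL1, a copy of EIF5A, was below the 25th percentile on all arrays, and its log2 difference of 0.08 did not pass. EIF6, which keeps the large subunit from joining too early and acts in its maturation, was lower by a factor of 1.23 (adjusted p = 0.0498).

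Probe sets of a gene mostly told the same story. The 46 genes had 151 probe sets, and of those tested separately 74 were lower and 10 were higher. Over all 44988 probe sets annotated to 1 gene, 20.7% were lower and 15.3% higher. Of 40 genes with more than 1 probe set, 29 had all of them on the same side of 0, and in 0 genes were probe sets called in both directions. The widest spreads were those of EIF2S2, EIF4E3, EIF4A2 and EIF3G. In EIF2S2 the brightest and the middle probe set were called lower at -1.03 and -0.60 on the log2 scale. The dimmest, with levels of 2.76 to 3.08, had a log2 difference of 0.19 and did not pass. In EIF3G the 2 bright ones were called lower at -0.70 and -0.61, and the 2 others, at 0.15 and 0.19, did not pass.

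**Figure D4:**
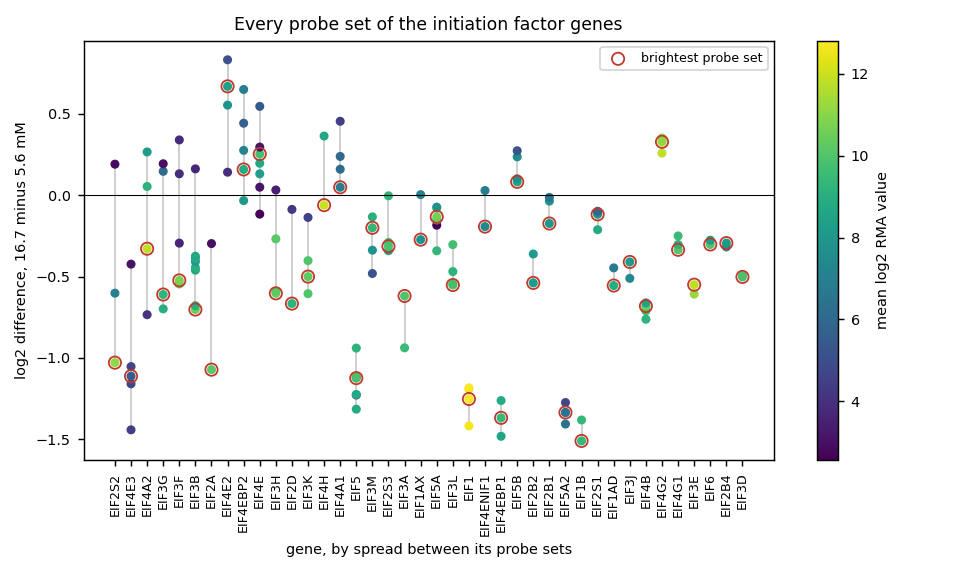
Log2 difference between 16.7 mM and 5.6 mM glucose of every probe set of the 40 genes that have more than 1, ordered by the spread within a gene. Colour gives the mean log2 level over the 4 arrays and red rings mark the brightest probe set, which stands for the gene elsewhere. Only probe sets annotated to 1 gene are drawn. Of these, EIF1, EIF1B, EIF5, EIF5A2 and EIF4EBP1 have all of theirs below -0.9, and EIF4A2 has bright probe sets on both sides of 0.

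Calls of small differences were lost with fewer arrays, and some also with all 4 arrays. A further quantile normalization ended the calls of EIF2S3, EIF3J, EIF4G2 and EIF6. With replicate number added to the fit as a block, the calls of EIF2S3, EIF3J, EIF4A2, EIF4G1, EIF4G2 and EIF6 ended. EIF2S3, EIF3J, EIF4A2, EIF4G1 and EIF6, and the higher EIF4A3 and EIF4G2, lost their call whichever 1 of the 4 arrays was left out, with adjusted p from 0.0506 to 0.209. They kept their direction, and the log2 difference ran from 0.37 to 0.39 for EIF4A3 and from -0.38 to -0.25 for EIF2S3. EIF2B2 lost it without normal glucose replicate 1 or 2 or high glucose replicate 2, and EIF3K without normal glucose replicate 1 or either high glucose replicate (adjusted p of at most 0.0612 and 0.0781). EIF2B5 lost it without normal glucose replicate 1 or high glucose replicate 2, EIF3L without either normal glucose replicate and EIF3D without high glucose replicate 1 (at most 0.0603, 0.0514 and 0.0506). The other 18 of the 30 called genes, the 8 with 2-fold falls among them, passed with any 1 array left out. In these fits 1 group has a single array, which is assumed to vary like the 2 of the other group, so they are a weak check. A two-sided exact permutation test of 1 gene on 2 against 2 arrays cannot give a p below 0.333, so every call uses the spread that limma shares between genes. At the thresholds of the methods, a fold beyond 1.5 or 0.67 and an unadjusted p under 0.05, 14 of the 46 were lower and 1 was higher, beside 13.4% and 10.6% of all genes.

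Regulators and partners of the initiation factors, and genes of other steps of translation, were taken from 6 lists written from textbook knowledge. Of 72 measured, 33 were lower, 4 were higher and 35 did not pass, with a median log2 difference of -0.21. Among all genes 22.2% were lower and 15.5% higher, and among genes at a level of 8 or more 41.5% and 23.9%. Some of the 72 lie below that level. The same shares stand beside the count of each list. Of the 13 genes that set the phosphorylation of eIF2 alpha, 5 were lower and 1 was higher. PPP1R15A, or GADD34, the stress-induced subunit that directs a phosphatase to eIF2 alpha, was at 10.64 on both normal glucose arrays and 7.30 and 7.37 in high glucose. PPP1R15A was lower by a factor of 9.87 (log2 SE 0.0846, limma adjusted p = 6.96e-06). That value rests on its only probe set, which is of a type that may also bind other transcripts. PPP1R15B, the constitutive relative of PPP1R15A, was lower by a factor of 2.54, and DNAJC3, a chaperone also known as an inhibitor of eIF2 alpha kinases, by 2.45. EIF2AK2, the kinase PKR that double-stranded RNA activates, was 2.56-fold higher (adjusted p = 0.000393). EIF2AK3, the kinase PERK of the endoplasmic reticulum, had a log2 difference of -0.84 and EIF2AK1, the heme-regulated kinase, of -0.44 (adjusted p = 0.00123 and 0.0083). EIF2AK4, the kinase GCN2 that senses uncharged tRNA, had one of -0.02 (adjusted p = 0.886).

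Of 15 genes of mTORC1, its inputs and genes downstream of it, 9 were lower, RPS6 and LARP1 among them, and 0 were higher. Among all genes 22.2% were lower and 15.5% higher, and among genes at a level of 8 or more 41.5% and 23.9%. TBC1D7 and TSC1, parts of the complex that restrains mTORC1, fell by factors of 1.81 and 1.76, and the mTORC1 components MLST8 and AKT1S1 by 1.69 and 1.56. The call of MLST8 ended without either normal glucose replicate or without high glucose replicate 1 (adjusted p of at most 0.118). AKT1S1 encodes PRAS40, itself an inhibitor of the complex. Of 20 partners of the cap complex, 8 were lower and 1 was higher, beside the same shares. MKNK2, the kinase MNK2 that phosphorylates eIF4E, was at 11.55 and 11.33 in normal glucose and 8.85 and 8.88 in high glucose. MKNK2 was lower by a factor of 5.97 (log2 SE 0.105, limma adjusted p = 2.53e-05), whereas MKNK1 had a log2 difference of -0.03 (adjusted p = 0.827). PABPC4, a poly(A)-binding protein, was lower by a factor of 2.17 and ANGEL1 by 1.77. CYFIP2, a relative of the eIF4E-binding CYFIP1, was called lower, at 4.70 and 5.33 in normal glucose and 3.14 and 2.80 in high glucose. The latter are below the 25th percentile of the arrays, so no factor is given. CYFIP1 was the higher one, at a log2 difference of 0.64.

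Among 14 measured elongation and termination genes, 8 were lower and 1, EEF2K, the kinase that inhibits elongation factor eEF2, was higher (log2 difference 0.46). The shares over all genes were 22.2% lower and 15.5% higher, and at a level of 8 or more 41.5% and 23.9%. EEF1B2 and EEF2, of the elongation machinery, fell by factors of 2.35 and 1.93, the release factor ETF1 by 1.62 and the mitochondrial TUFM by 1.56. Of 8 other factors of start-site choice and recycling, ABCE1 was lower by a factor of 1.45 and BZW2, a mimic of eIF5, was 1.44-fold higher. The mitochondrial initiation factors MTIF2 and MTIF3 were lower by factors of 1.53 and 1.27. The call of MTIF2 ended without normal glucose replicate 2 or either high glucose replicate, and that of MTIF3 without any 1 of the 4 arrays (adjusted p of at most 0.0992 and 0.125).

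**Figure D5:**
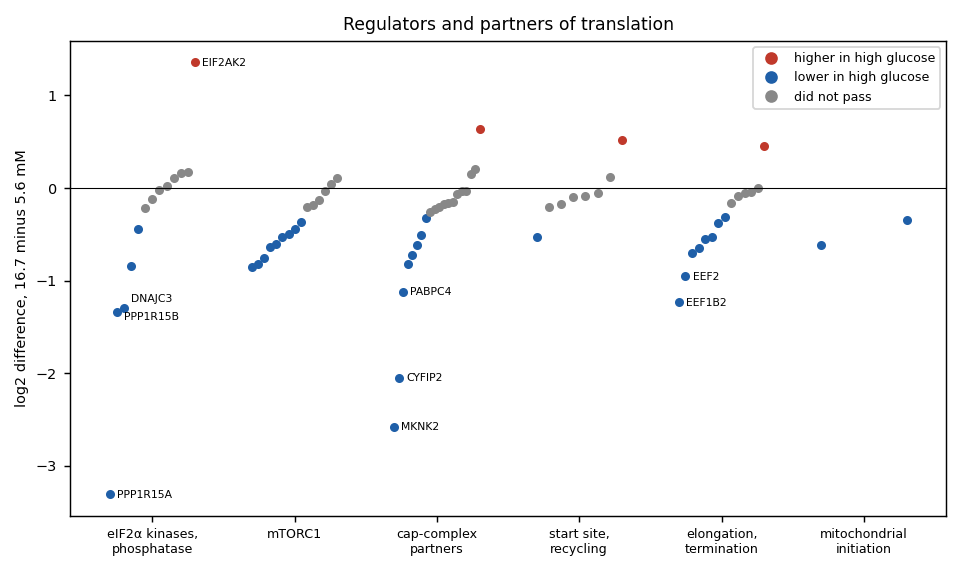
Log2 difference between 16.7 mM and 5.6 mM glucose of 72 other genes of translation and its control, elongation and termination genes included, in 6 lists, from 2 arrays per group. Each point is a gene, coloured by its call, and names are given to called genes with the largest differences. PPP1R15A and MKNK2 lie lowest and EIF2AK2 highest.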

How the data were processed

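RNA of UM1 cells was hybridised to 4 Affymetrix arrays, 2 for each glucose level. Per the labels and the methods, the authors ran GCOS and RMA and deposited log2 values per probe set, corrected for background and normalised between arrays. No versions are stated. Although the methods give another array, U133 Plus 2.0, the 49395 probe set names are those of the PrimeView annotation. That annotation pairs 44988 with 1 gene and 1832 with more, 2473 have no entry, and 102 controls were left out. Symbols were updated through the GRCh38.p14 gene table. The brightest probe set stood for each of 18132 genes.

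Groups were compared with limma 3.58.1 in R 4.3.3 (lmFit, then eBayes). Calls used Benjamini-Hochberg values below 0.05, adjusted over all 18132 genes. SE and 95% intervals come from the same fit. For lower genes the factor is the normal glucose level over the high glucose level. The fit was tested on simulated data. Named were all members, those called with 2-fold or more and the eIF4E and 4E-BP genes by array, the 4 members with the widest probe set spread, and up to 4 called genes of each regulator list with the largest difference. EIF2AK1, EIF2AK3, EIF2AK4, MKNK1, CYFIP1, RPS6, LARP1 and EEF2K were named after their values were seen. The members and lists were chosen with earlier results of these data known. Alternatives were other probe set summaries, normalisations, filters, floors, variance models, tests, thresholds, a replicate block and each array left out. Python 3.11.15, pandas 2.3.3, numpy 2.4.6, scipy 1.17.1 and matplotlib 3.10.9 were used.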

Additional observations from a re-analysis of the deposited data

How the results depend on the processing

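Of the 30 calls, 13 were kept in every alternative that measured the gene. The count of lower initiation factor genes stayed within 1.5 times of 27 in all alternatives but 2: it was 15 with the methods' t-test after Benjamini-Hochberg adjustment and 14 at the thresholds of the methods, and it ranged from 18 to 20 with 1 array left out. The count of higher genes was 1 instead of 3 with the methods' t-test, at the thresholds of the methods, and without any 1 array. For the regulator lists, lower genes numbered 15 with the methods' t-test and 20 at the thresholds of the methods, against 33, and 21 to 24 with 1 array left out. Higher ones numbered 1 and 2, against 4. The median log2 difference of the initiation factor genes was -0.298 with the mean and -0.294 with the median of a gene's probe sets, -0.295 without _x_at and _s_at probe sets, -0.455 without dim genes, and -0.473 to -0.336 with 1 array left out.

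The direction turned in 6 genes, whose log2 differences became 0.00338 for EIF1AX, 0.34 for EIF3F, 0.0534 for EIF4A2 and 0.36 for EIF4H without _x_at and _s_at probe sets, 0.035 for EIF3F, 0.16 for EIF4A2 and 0.15 for EIF4H with the median of probe sets, 0.15 for EIF4H with their mean, and 0.0024 for EIF4E1B with the floor. With 1 array left out, EIF4H ranged from -0.13 to 0.00715 and EIF5AL1 from -0.0161 to 0.185. The cause was not tested.

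Replicate numbers are shared between the groups, but same-numbered arrays did not deviate together (r = -0.0046 across genes). That value cannot show whether the samples were paired, and no source states a pairing. With the replicate block, 22 initiation factor genes were lower and 2 were higher. Precision is limited by having 2 arrays per group.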
